A study of Caenorhabditis elegans with 6 samples.

Results

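C-type lectin genes (*clec*) encode proteins with a lectin fold that in many family members binds sugars in the presence of calcium. The table of expression values analysed here holds 85 genes, and 4 of them carry a *clec* symbol: *clec-10*, *clec-63*, *clec-67* and *clec-85*. They were found by matching each WormBase gene identifier to its symbol, a rule that uses no measured value, although the family was picked for description with earlier results of these data known. The WBcel235 annotation names 240 *clec* genes, and the other members of the family were not analysed here. The 85 genes had themselves been chosen on these libraries, since in each of the 85 the *hlh-11* KO mean and the *hlh-11* OE mean fall to either side of the wild type. Opposite directions in KO and OE are therefore a condition for being in the table and not a result. Differences from the wild type were tested on the same libraries, with adjustment over the chosen genes only. Their sizes, intervals and p-values, and the lack of overlap between genotypes, may for this reason overstate the change.

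Polyadenylated RNA was taken from pools of synchronized young adult *Caenorhabditis elegans* of 3 genotypes, with 2 libraries each. The wild type was strain N2. The *hlh-11* KO worms, labelled *hlh-11* knock-out, carried a CRISPR/Cas9 frameshift in the second exon of *hlh-11*, which encodes a basic helix-loop-helix transcription factor. The *hlh-11* OE worms are labelled *hlh-11* over-expression, and the transgenic line that was sequenced is not named in the sources used here, nor is the number of independent lines. All 6 libraries carry the strain label N2, and all worms were fed *Escherichia coli*. The level of *hlh-11* itself was not analysed here, so the genotype labels were not checked against it. Whether the replicates of a genotype were grown separately is not stated, and p-values measure only the spread between these libraries, which may be technical.

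The *clec* family is one of the largest groups of genes that change in the worm when it meets bacterial pathogens. Many of its products are made in the intestine and secreted, and for most of them the ligand is unknown. *clec-67* and *clec-85* are commonly used as readouts of the PMK-1 pathway, a mitogen-activated protein kinase cascade that drives antibacterial genes in the intestine. The comparison of genotypes asks how the level of each lectin transcript differs when the transcription factor is lost or in excess.

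Levels are in RPKM, a read count scaled to gene length in kilobases and to library size, so they can be compared between genes. The whole reads behind each value were worked out from the size of 1 read in each library, with library totals from 16538554 to 24023096. The 2 libraries of a genotype differed by more than counting noise over the 85 genes, with a chi-square per degree of freedom of 10.6 in the wild type, 19.9 in KO and 10.6 in OE.

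The 4 lectin genes lie at 4 separate places. *clec-63* (WBGene00009394) is on the plus strand of chromosome II from 12895638 to 12897446, with 4 exons and a coding sequence of 411 codons, with *clec-62* at 510 bases and *clec-64* at 796 bases. *clec-67* (WBGene00018971) is on the plus strand of chromosome IV from 3922165 to 3925039, with 9 exons and 467 codons, and has 11 other *clec* genes within 100 kb, *clec-68* among them at 1378 bases. *clec-85* (WBGene00021872) is on the plus strand of chromosome IV from 2850886 to 2855456, has transcripts of 181 to 280 codons, and lies 5281 bases from *clec-84*. *clec-10* (WBGene00015403), on the plus strand of chromosome II from 402678 to 404180 with 4 exons and 415 codons, stands alone, since its nearest *clec* neighbour, *clec-117*, is 105667 bases away. None of these neighbours is in the table. Related copies next to each other may share reads, and no sequence was at hand to measure how alike they are. Coordinates are those of WBcel235, the build the submitters' processing notes name. *clec-85* is the only one of the 4 whose span overlaps other genes, *Y54G2A.40* on the same strand and *Y54G2A.49* on the opposite one. It is also the one whose recovered length departs most from the annotation, at 1846 bases against 1434 annotated (1.29 times), while the other 3 were at up to 1.06 times. Whether strand was used in counting is not given, so reads of these overlapping genes cannot be told apart here.

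The 4 genes cover almost the whole range of levels in the table. In the wild type *clec-63* ranked as number 7 of the 85 genes, *clec-85* as number 57, *clec-10* as number 69 and *clec-67* as number 84. *clec-63* alone made up 90.1% to 91.7% of the summed RPKM of the 4 genes in every library. A total for the family in this table is thus in effect a measurement of *clec-63*.

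*clec-67* showed the widest range between genotypes of the 4. The wild-type libraries held it at 2.47 and 2.50 RPKM, those of KO at 7.26 and 6.63 RPKM and those of OE at 0.407 and 0.830 RPKM. The 3 genotypes did not overlap, and KO was highest and OE lowest. The reads behind these values were 111 and 85 in the wild type, 260 and 259 in KO, and 16 and 41 in OE. In OE the 95% Poisson intervals, which cover counting error only, were 0.233 to 0.661 RPKM and 0.596 to 1.13 RPKM, the widest relative to the level among the 4 genes, and the second OE library was 2.04 times the first. The mean in KO was 2.79 ± 0.180 times that of the wild type and the mean in OE 0.249 ± 0.120 times (SD carrying the spread of both genotypes, n = 2 each). In limma, on the log2(RPKM + 0.5) scale, which understates the changes of genes as low as this one, *clec-67* rose by 1.32 in KO (95% interval 1.01 to 1.63, adjusted p = 1.81e-14) and its OE difference was -1.44 (95% interval -1.75 to -1.13, adjusted p = 1.44e-16). *clec-67* was the gene with the lowest OE mean of the whole table.

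*clec-85*, the other PMK-1 readout, followed the same order of genotypes at a higher level. Wild-type libraries stood at 30.8 and 29.2 RPKM, KO libraries at 58.4 and 60.9 RPKM, and OE libraries at 7.71 and 12.7 RPKM. Both KO libraries were above and both OE libraries below every wild-type library. At 1240 and 890 reads in the wild type, 1878 and 2134 in KO, and 272 and 564 in OE, counting error was small beside these gaps. The KO mean was 1.99 ± 0.0960 times and the OE mean 0.341 ± 0.119 times the wild-type mean (SD, n = 2 each). Its log2 difference from the wild type was 0.98 in KO (95% interval 0.67 to 1.29, adjusted p = 6.22e-09 from limma) and -1.55 in OE (95% interval -1.86 to -1.24, adjusted p = 1.63e-18 from limma).

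*clec-63* is the abundant lectin of the 4. It was at 545 and 519 RPKM in wild-type worms, at 856 and 828 RPKM in KO and at 336 and 444 RPKM in OE, from 8435 to 20651 reads per library. The genotypes again did not overlap, but both steps were smaller than for *clec-67* and *clec-85*. In KO it was 1.58 ± 0.0652 times the wild type (SD, n = 2 each), a log2 difference of 0.66 (95% interval 0.35 to 0.97, adjusted p = 6.43e-05 from limma). In OE it was 0.733 ± 0.146 times the wild type, a log2 difference of -0.46 (95% interval -0.77 to -0.15, adjusted p = 0.00489 from limma). The OE call depended on single libraries: the difference was -0.26 (adjusted p = 0.0909) without OE replicate 1 and -0.43 (adjusted p = 0.0815) without wild type replicate 1, and it did not pass on the gene's own spread either (adjusted p = 0.0765).

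*clec-10* was the member that went the other way. Wild-type worms had 18.0 and 15.7 RPKM, KO worms 11.3 and 12.9 RPKM and OE worms 28.9 RPKM in both libraries. Here the OE libraries were highest, the KO libraries lowest, and no genotype overlapped another. Reads were 544 and 359 in the wild type, 272 and 338 in KO, and 764 and 963 in OE. Relative to the wild type it was at 0.717 ± 0.0963 in KO and at 1.72 ± 0.168 in OE (SD, n = 2 each). The log2 differences were -0.46 in KO (95% interval -0.77 to -0.15, adjusted p = 0.00447 from limma) and 0.77 in OE (95% interval 0.46 to 1.07, adjusted p = 4.79e-06 from limma). The KO decrease did not pass without wild type replicate 1, at -0.37 (adjusted p = 0.0549), or without KO replicate 1, also at -0.37 (adjusted p = 0.0854).

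**Figure D1:**
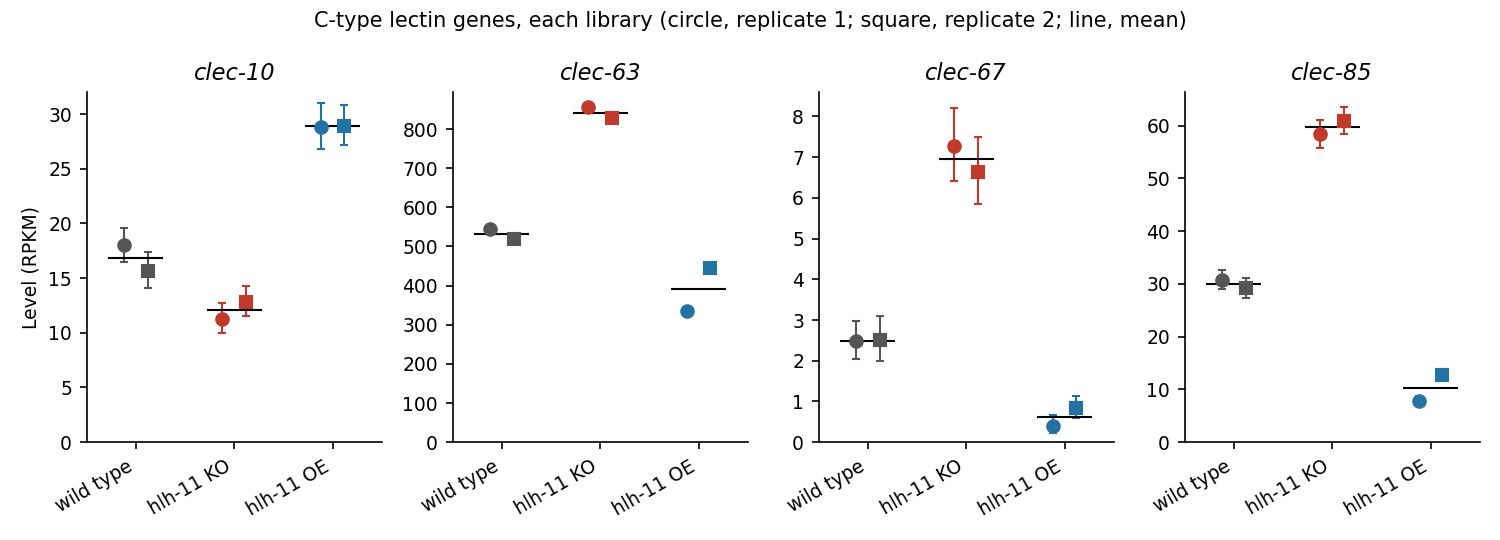
Level of each C-type lectin gene in RPKM (y axes from 0, a different scale in each panel) in the 2 libraries of each genotype. Bars are 95% Poisson intervals of the recovered reads, smaller than the symbol where not visible, and lines are means. KO is highest and OE lowest for *clec-63*, *clec-67* and *clec-85*, and the order is turned round for *clec-10*, from 11.3 RPKM in KO to 28.9 RPKM in OE.

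By genotype, 3 of the 4 lectin genes rose and 1 fell in KO, and 3 fell and 1 rose in OE. Over the table, 94.1% of genes were called in KO (70.6% higher and 23.5% lower) and 89.4% in OE (60% lower and 29.4% higher) (limma with Benjamini-Hochberg adjustment over the 85 genes). The lectins' counts are close to what the chosen table holds as a whole, and nothing about the family follows from them. The median absolute log2 difference was 0.82 in KO for the 4 genes against 0.68 for the 85, and 1.10 in OE against 0.64. Libraries of KO lay wholly above those of the wild type for the 3 genes and wholly below for *clec-10*, as they did for 70.6% and 28.2% of the table. OE lay wholly below the wild type for the same 3 genes and above it for *clec-10*, against 69.4% and 29.4% of the table.

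KO and OE were also set directly against each other, a comparison whose ratios and log2 differences use no wild-type library. The spread behind its p-values was taken from all 6 libraries, those of the wild type included. The KO mean was 5.84 times the OE mean for *clec-85*, 2.16 times for *clec-63* and 0.418 times for *clec-10*, and the ratio was largest for *clec-67*. The log2 differences from limma were 2.76 for *clec-67* (adjusted p = 5.25e-45), 2.53 for *clec-85* (adjusted p = 5.11e-40), 1.12 for *clec-63* (adjusted p = 1.40e-11) and -1.23 for *clec-10* (adjusted p = 2.39e-13). All genes of the table passed in this comparison (100%), 70.6% of them higher and 29.4% lower in KO. A difference between KO and OE follows from how the genes of the table were chosen, so these p-values are not independent evidence of one. They are also very small because limma gave every gene 1 pooled SD of 0.157 on the log2 scale. The genes' own residual SDs, on 3 degrees of freedom each, were 0.108 for *clec-10*, 0.168 for *clec-63*, 0.231 for *clec-67* and 0.283 for *clec-85*. The pooled value was thus smaller than the spread of *clec-63* and of the 2 genes that changed most. With each gene tested on its own spread, the adjusted p for KO against OE was 0.00289 for *clec-67*, 0.00441 for *clec-85*, 0.00721 for *clec-63* and 0.00304 for *clec-10*. Against the wild type on their own spread, *clec-67* and *clec-85* had adjusted p-values of 0.0227 and 0.0459 in KO, and of 0.0220 and 0.0244 in OE. An exact permutation test of 2 libraries against 2 cannot give a two-sided p under 0.333, so none is given.

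**Figure D2:**
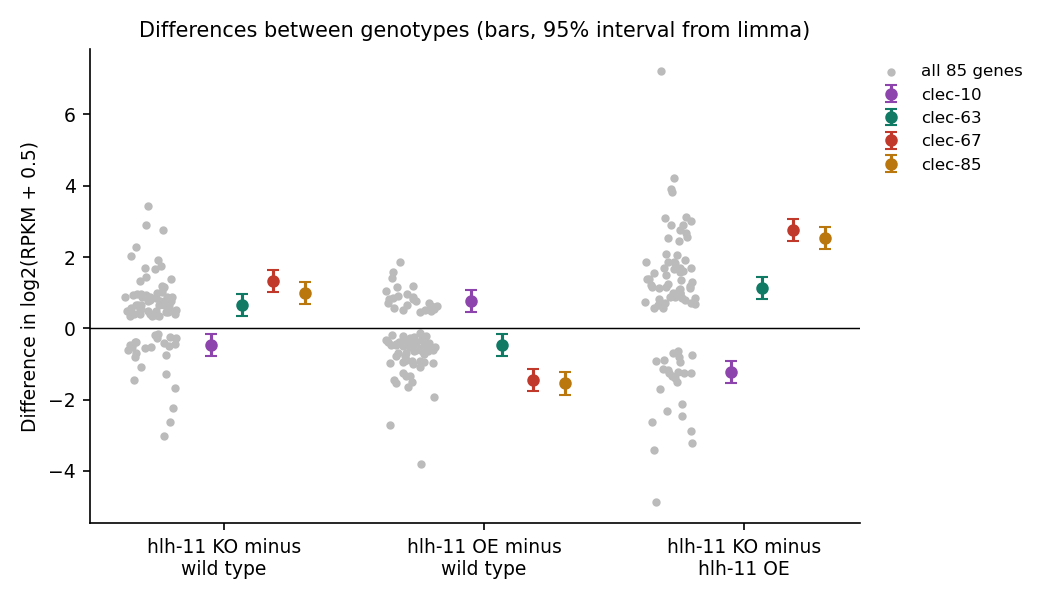
Difference in log2(RPKM + 0.5) between genotypes (y axis) for each C-type lectin gene (coloured, bars are 95% intervals from limma) and for all 85 genes of the table (grey). *clec-67* and *clec-85* lie at 1.32 and 0.98 in KO against wild type and at -1.44 and -1.55 in OE against wild type, and *clec-10* lies on the other side of 0 in each comparison.

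The 2 arms of the response were compared in size by adding the log2 difference of OE to that of KO, which gives 0 where a gain and a loss of equal size are measured. These differences have opposite signs in every gene of the table, but the full rule by which its genes were chosen is not stated. The choice may therefore also have shaped the sums and the share of genes that passed. The sum was 0.30 for *clec-10* (95% interval -0.23 to 0.84), 0.20 for *clec-63* (-0.33 to 0.74), -0.13 for *clec-67* (-0.66 to 0.41) and -0.57 for *clec-85* (-1.10 to -0.03). After adjustment 0 of the 4 passed in limma (1 at an unadjusted p under 0.05, *clec-85*, with an adjusted p of 0.219), as against 11.8% of the table (5.88% above 0 and 5.88% below 0). With limma voom 0 also passed (1 unadjusted), and with each gene on its own spread 0 passed (0 unadjusted). The wider drop of *clec-85* in OE than its rise in KO passed only without OE replicate 2, at -0.91 (adjusted p = 0.0173), and was -0.22 without OE replicate 1. The intervals leave room for sums of 0.41 to 0.84 or of -0.23 to -0.66 in the other 3 genes, so arms of equal size are not shown.

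The 2 OE libraries lay apart for the 3 genes that fell in OE and together for *clec-10*. OE replicate 2 was above OE replicate 1 by 0.69 on the log2 scale for *clec-85*, 0.55 for *clec-67* and 0.40 for *clec-63*, and by 0.00426 for *clec-10*. These differences ranked as numbers 2, 5, 11 and 84 in absolute size among the 85 genes. Over all 85 genes the median difference was 0.15, with 67 genes higher in OE replicate 2. The 3 lectin genes that fell in OE shared that direction and exceeded the median, and *clec-10* was below it. Without the pseudocount the gap in log2 RPKM was 0.40 for *clec-63*, 0.72 for *clec-85* and 1.03 for *clec-67*. Counting error alone would give an SD of 0.0199, 0.107 and 0.425 on that scale, so the gap was 20.2, 6.78 and 2.42 times that SD. In the wild type and KO libraries the difference between replicates of the 4 genes was 0.19 or less in absolute size. For the 3 genes that fell in OE, OE replicate 2 was thus the OE library nearer to the wild type, and what sets the 2 OE libraries apart was not tested.

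**Figure D3:**
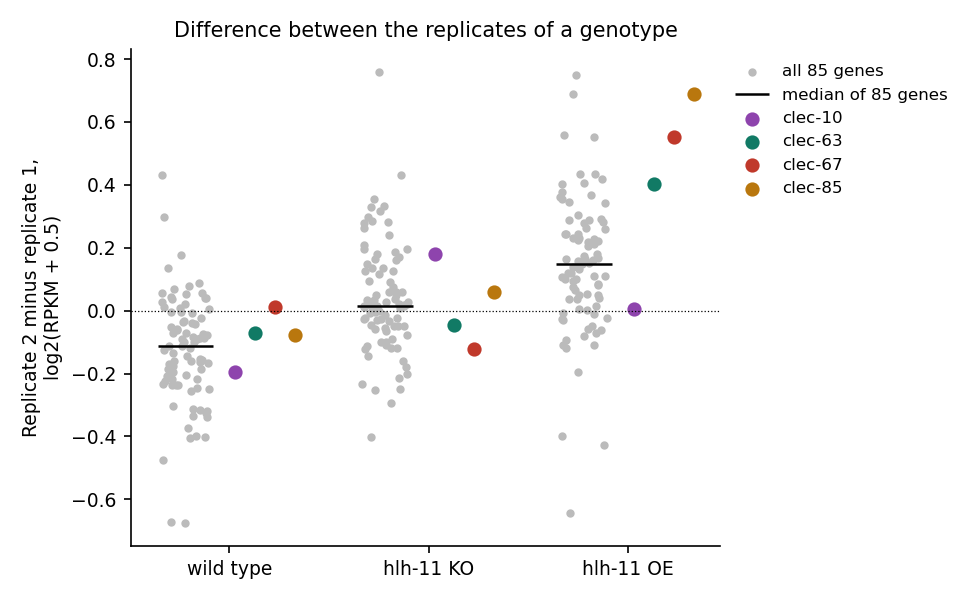
Replicate 2 minus replicate 1 in log2(RPKM + 0.5) (y axis) within each genotype for the C-type lectin genes (coloured) and all 85 genes (grey, with their median as a line). In *hlh-11* OE, *clec-85*, *clec-67* and *clec-63* lie at 0.69, 0.55 and 0.40, above the median of 0.15, and *clec-10* lies near 0.

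Ratios between lectin genes within a library do not depend on the library's total. The ratio of *clec-67* to *clec-63* was 0.00454 and 0.00482 in the wild type, 0.00849 and 0.00801 in KO and 0.00121 and 0.00187 in OE. *clec-67* therefore moved by more than *clec-63* in both genotypes, with no overlap between genotypes. For *clec-85* over *clec-63* the ratio was 0.0565 and 0.0562 in the wild type, 0.0683 and 0.0735 in KO and 0.0229 and 0.0286 in OE, the same order with a smaller step in KO. The ratio of *clec-67* to *clec-85* was 0.0804 and 0.0858 in the wild type, 0.124 and 0.109 in KO, and 0.0528 and 0.0653 in OE. In OE the ratios with *clec-67* rest on 16 and 41 reads of that gene. The counting error of the ratios was not worked out, so the order of OE and wild type in *clec-67* over *clec-85* is uncertain. Between wild type and OE the ratio of the 2 PMK-1 readouts to each other moved by less than the ratio of either to *clec-63*, whereas between wild type and KO the ratio of *clec-85* to *clec-63* moved least. In the case of *clec-10*, the ratio of *clec-63* to it was 30.3 and 33.1 in the wild type, 75.9 and 64.4 in KO and 11.6 and 15.3 in OE. These ratios share genes and are given as a description, with no test.

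**Figure D4:**
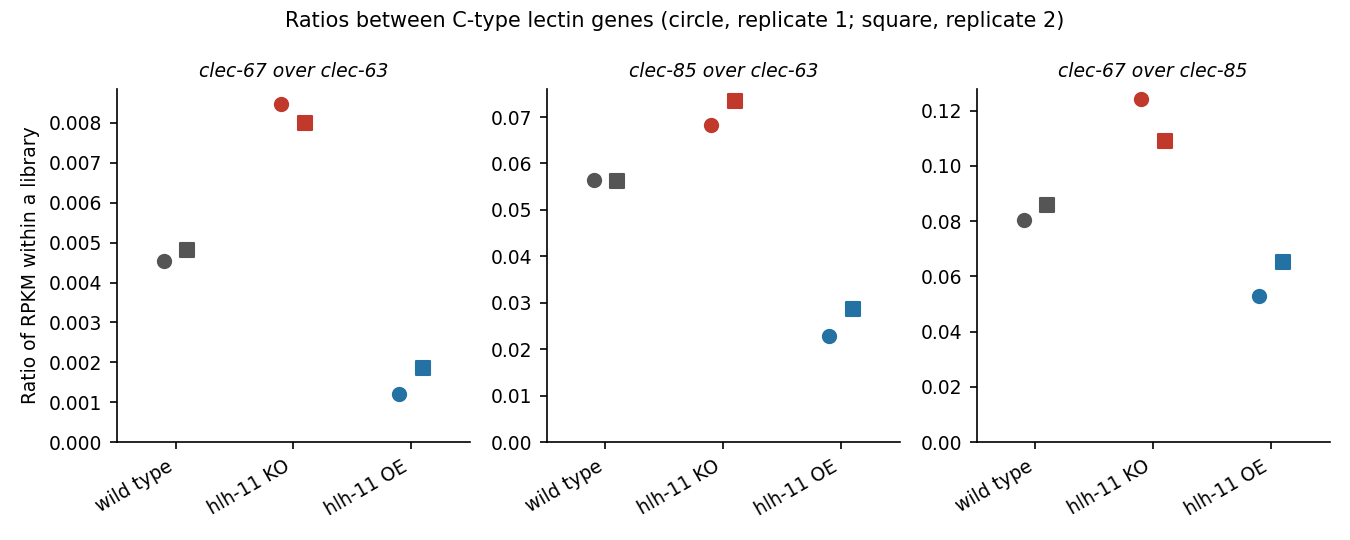
Ratio of the RPKM of 2 C-type lectin genes within each library (y axes from 0) by genotype. In each panel the KO libraries are highest and the OE libraries lowest, with *clec-67* over *clec-63* from 0.00121 in an OE library to 0.00849 in a KO library. Counting error is not drawn, and the OE ratios with *clec-67* rest on 16 and 41 reads of that gene.

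The genes whose pattern was most like each lectin were sought by the root mean square difference of log2(RPKM + 0.5) over the 6 libraries, each gene centred on its wild-type mean. For *clec-67* they were *sdz-24* (0.12) and *F21C10.10* (0.20), and *clec-85* came next (0.21). The 2 nearest to *clec-85* were *spp-18* (0.20), a saposin-like gene of a family with antimicrobial members, and *clec-67* (0.21). *asp-3* (0.07), which encodes an aspartyl protease, and *F46G10.1* (0.10) were nearest to *clec-63*. *clec-10* was closest to *ZK813.7* (0.06) and *ule-5* (0.08). Their log2 differences were -0.44 and -0.54 in KO and 0.72 and 0.71 in OE. Without KO replicate 1 these 3 KO differences did not pass (adjusted p = 0.0713 to 0.162), and those of *clec-10* and *ZK813.7* did not without wild type replicate 1. *clec-10* stood 0.97 from *clec-63*, the same as its median distance to the other genes of the table (0.97), and 1.59 from *clec-85* and 1.65 from *clec-67*. A short distance in a table chosen for opposite changes is a description of 6 libraries only.

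The other gene family of the table that is named as lectins is the galectins, which bind beta-galactosides. *lec-2*, *lec-9* and *lec-10* were all higher in KO (3 of 3, beside 70.6% of the table) and all lower in OE (3 of 3, beside 60% of the table), the common directions in this table. Their KO differences were 0.55, 0.87 and 0.51 on the log2 scale, and their OE differences -0.32, -0.995 and -0.47. The *lec-2* OE call did not pass without wild type replicate 1, either KO library or OE replicate 1, with the replicate block, on its own spread or in the fit of OE and wild type only (adjusted p = 0.0663 to 0.179). The median was 0.55 in KO and -0.47 in OE, beside 0.52 and -0.42 over the table.

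Of 6 other innate immune genes, 5 were lower and 1 higher in KO, where 23.5% of the table was lower and 70.6% higher, and 5 were higher and 1 lower in OE, where 29.4% of the table was higher and 60% lower. The one that moved with *clec-67* and *clec-85* was *spp-18*, at 0.74 in KO, which did not pass on its own spread (adjusted p = 0.0587), and -1.33 in OE. The thaumatin-like gene *thn-2* was at -0.68 in KO and 0.82 in OE, and *dod-23* at -1.45 and 1.42. *dod-24*, *irg-4* and *F55G11.2* had the lowest KO values, at -3.01, -2.24 and -1.68, and OE values of 1.85, 1.17 and 0.96. The median of the 6 was -1.57 in KO and 1.06 in OE. All of them but *spp-18* lay on the opposite side of the wild type from most lectins, and on the same side as *clec-10*.

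Genes of the table used as readouts of the PMK-1 pathway went both ways. Of the 4, *clec-67* and *clec-85* rose in KO and fell in OE, and *irg-4* and *F55G11.2* did the reverse. Over the table, 70.6% of genes were called higher and 23.5% lower in KO, and 29.4% higher and 60% lower in OE. The chosen table thus holds both directions itself, and nothing about the pathway follows from this split. *irg-4* was at 10.9 and 8.13 RPKM in wild-type libraries, at 1.30 and 1.93 RPKM in KO and at 21.96 and 21.6 RPKM in OE. For *F55G11.2* the wild type gave 4.80 and 4.66 RPKM, KO 0.959 and 1.32 RPKM and OE 8.83 and 10.5 RPKM. Within the same KO libraries the lectin readouts were thus above, and the other 2 readouts below, both wild-type libraries. The other genes on that list were not analysed here.

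**Figure D5:**
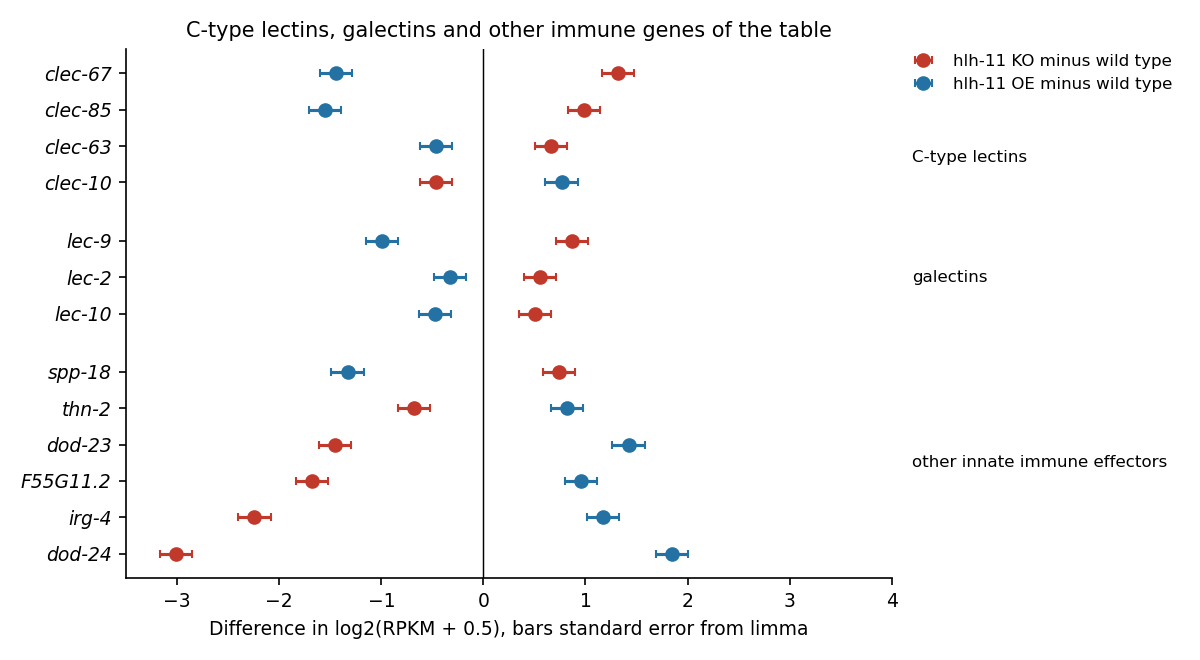
Difference in log2(RPKM + 0.5) from the wild type (x axis, bars are standard errors from limma) in each *hlh-11* genotype for the C-type lectins, galectins and other innate immune genes of the table. *clec-67*, *clec-85* and *clec-63*, the 3 galectins and *spp-18* lie above 0 in KO, and *clec-10* lies below 0 with the other 5 immune genes, down to -3.01 for *dod-24*.

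Levels of the tissue and stage markers in the table also differed between the genotypes. By the choice of genes, each of them has KO and OE means to either side of the wild type. That they differ is therefore a condition for being in the table and not a result. In whole worms, fewer cells of a tissue and less RNA per cell cannot be told apart. Of 5 intestinal genes in the table (*act-5* and 4 *asp* genes), 4 were higher and 1 lower in KO, beside 70.6% and 23.5% of the table. In OE 1 was higher, 3 were lower and 1 was not called, where 29.4% of the table was higher and 60% lower. Their summed level was 2140 and 2172 RPKM for wild-type libraries, 3057 and 3056 RPKM for KO and 1651 and 1878 RPKM for OE. In the same order the 6 sperm genes summed to 806 and 636, 1288 and 1328, and 417 and 489 RPKM, and the 7 collagen genes to 6024 and 5404, 8018 and 8673, and 4268 and 4567 RPKM. All 6 sperm genes and all 7 collagen genes were higher in KO (70.6% of the table), and 6 sperm and 5 collagen genes were lower in OE (60% of the table). None of these markers was at 0 in any library. The defining intestinal genes *elt-2* and *ges-1*, and the fixed markers of oocytes, muscle and neurons, were not analysed here. The part of intestinal content and of developmental age in the lectin differences was not tested.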

How the data were processed

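The authors sequenced polyadenylated RNA on a HiSeq instrument, aligned reads to WBcel235 with TopHat2 and used DESeq2 for differential expression. FastQC 0.11.5 is also named in the submitters' processing notes. How reads were counted, and whether strand was used, the sources used here do not state. The deposited values are RPKM, 1 column per library, for 85 genes. All 85 identifiers were matched to symbols. Members and gene lists were chosen with earlier results of these data known.

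With a single total for each library and a single length for each gene, all 510 values came out as whole reads (tolerance 1e-06). The absolute scale was set by annotated lengths (recovered over annotated, median 1.01, range 0.779 to 1.72), so the reads are inferred. The recovery and the model were tested on simulated data, and the recovery was revised after it had missed totals in a simulated run.

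Values on the log2(RPKM + 0.5) scale, with no filter on low values, entered limma 3.58.1 (R 4.3.3, lmFit and eBayes, two-sided, 6 libraries). Adjustment (Benjamini-Hochberg) ran over 85 genes, with 0.05 as threshold. The authors' DESeq2 test needs counts and was not used. The prior degrees of freedom were infinite. The text names the 4 members, the 2 genes nearest in pattern to each, and the galectin, innate immune and PMK-1 lists, up to 6 members of each. *act-5*, *elt-2* and *ges-1* were named as examples of their list after values were seen.

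Alternatives were pseudocounts of 0.1 and 1, a filter at a mean of 1 RPKM, limma-trend, no empirical Bayes, limma voom on the recovered reads, a replicate block, the compared groups only, and leaving out each library. A block with crossed replicate numbers was added after seeing the data.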

Additional observations from a re-analysis of the deposited data

How the results depend on the processing

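Against the wild type, the calls of *clec-67* and *clec-85* in KO and OE, of *clec-63* in KO and of *clec-10* in OE kept their direction and their side of the threshold under all 15 alternatives. So did all 4 calls for KO against OE. Every alternative used genes of the same chosen table, so the effect of that choice on the calls was not tested. Leaving out 1 library leaves a single library in that genotype. In these fits the number of lectin genes called lower changed in KO and in OE. The number of genes of the table called higher in KO and lower in OE changed as well, so the shares of the table given above are not fixed. The count of lectin genes with a sum of the KO and OE differences below 0 was 0 to 1 in these fits, and that of genes of the table lower in KO was 10 to 22, beside 20, with 10 without KO replicate 1. For the same sum, 1 to 5 genes of the table were above 0 and 1 to 5 below 0, beside 5 and 5. With a pseudocount of 0.1, 3 were above 0. With each gene on its own spread, 0 were above 0 and 0 below 0 (8 of the 85 at an unadjusted p under 0.05), against 9 in all with limma voom and 8 with limma-trend. The sum for *clec-67* turned from -0.13 to 0.068 with a pseudocount of 1, was -0.47 with a pseudocount of 0.1 and -0.60 with limma voom, and ran from -0.40 (without OE replicate 2) to 0.15 (without OE replicate 1) when 1 library was left out, and did not pass in these fits.

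The replicate numbers are not known to pair the libraries. Same-numbered libraries did not deviate together (correlation of deviations -0.14 between wild type and KO, -0.11 between wild type and OE and -0.13 between KO and OE). With the replicate block, 59 genes of the table were higher and 20 lower in KO, 25 higher and 48 lower in OE, and 3 lectin genes were higher and 1 lower in KO. With crossed numbers 60 genes were higher and 23 lower in KO, and 25 higher and 54 lower in OE.

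Depth limits *clec-67* in OE, where 16 and 41 reads were counted. Reads from PCR libraries without molecular identifiers are not independent molecules. A change in all genes of the worm cannot be seen in a table of 85 chosen genes, and no other scaling of the libraries could be tried.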
